A study of Mus musculus with 6 samples.

Results

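The proteasome subunit genes of mouse double-negative thymocytes were described as a set of 45 genes among 19937 genes with an array value. They are the genes whose symbols begin with Psma, Psmb, Psmc, Psmd, Psme, Psmf or Psmg and a number, without the inducible subunits Psmb8, Psmb9 and Psmb10 and the thymic subunit Psmb11, together with Pomp, and each was represented by its brightest probe set. By role they comprise 15 genes of the 20S core, 17 of the 19S regulatory particle, 8 assembly factors and 5 activators or inhibitors.

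The first group, DNTLX3+, holds 3 arrays of double-negative thymocytes, precursors with neither CD4 nor CD8, that were sorted from wild-type mice and spinoculated with the retroviral vector pMSCV-GFP-TLX3 in the presence of polybrene at 10 µg/ml. TLX3 is a homeobox oncogene of T-cell acute lymphoblastic leukaemia. The transduced cells were grown for 4 to 5 weeks on irradiated OP9-DL1 stroma, a line that presents a Notch ligand, in medium with 1% of an interleukin 7 supernatant and 2.5% of a Flt3 ligand supernatant, and the labels call them tumoral. The second group, RAG-/-, holds 3 arrays of double-negative thymocytes of Rag2-/- mice, which lack a recombinase of antigen receptor assembly and whose thymocytes stop at this stage. The labels call these cells control and leave unclear whether they were cultured. The protocols name C57Bl/6 mice of 4 to 6 weeks for all samples. No array of cells given the vector without TLX3 was analysed here, so Rag2 genotype, virus and possibly culture differ together between the groups and cannot be told apart. Whether the replicates are separate mice or cultures is not stated, and the p-values therefore reflect only how much these arrays vary, which could be technical variation.

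The proteasome degrades proteins that carry ubiquitin chains. Its 20S core is a barrel of stacked rings, in which alpha subunits form the gate and beta subunits hold the cutting sites, and the 19S particle caps the barrel, binds ubiquitin, removes it and unfolds the substrate with a ring of ATPases. Dividing T-cell precursors make and destroy many short-lived regulators this way, and in lymphoid cells inducible beta subunits can replace the constitutive catalytic ones. When proteasome activity falls, the transcription factor Nfe2l1 is known to raise the transcription of subunit genes in mammals through antioxidant response elements.

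The promoter windows of 5 genes are shown first, because Psmc1, Psma7 and Psmg3 rose most among the 19S, 20S and assembly genes that have a window, Pomp fell furthest, and the catalytic subunit Psmb5 stands for members that did not pass. Each window runs from 250 bases before to 50 bases after the annotated start, 5′ to 3′ on the gene's strand, and was taken from RefSeq. Capitals mark matches, on either strand, to the core of the antioxidant response element (TGACNNNGC or TGAGNNNGC) and to the CCAAT box (CCAAT).
Psmc1 (GRCm38.p6, chr12:100109952-100110251, strand +): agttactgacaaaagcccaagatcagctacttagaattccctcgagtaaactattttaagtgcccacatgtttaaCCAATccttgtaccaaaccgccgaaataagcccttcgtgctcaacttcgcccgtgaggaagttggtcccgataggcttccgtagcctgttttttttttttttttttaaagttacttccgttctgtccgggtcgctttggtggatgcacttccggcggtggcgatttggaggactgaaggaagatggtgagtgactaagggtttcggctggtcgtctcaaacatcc
Psma7 (GRCm38.p6, chr2:180042415-180042714, strand -): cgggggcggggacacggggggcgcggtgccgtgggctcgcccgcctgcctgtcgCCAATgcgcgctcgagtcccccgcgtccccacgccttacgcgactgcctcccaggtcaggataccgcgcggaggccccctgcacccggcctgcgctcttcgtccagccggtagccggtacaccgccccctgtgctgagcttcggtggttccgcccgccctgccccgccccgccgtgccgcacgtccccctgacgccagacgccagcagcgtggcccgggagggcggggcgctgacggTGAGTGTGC
Psmg3 (GRCm38.p6, chr5:139826845-139827144, strand -): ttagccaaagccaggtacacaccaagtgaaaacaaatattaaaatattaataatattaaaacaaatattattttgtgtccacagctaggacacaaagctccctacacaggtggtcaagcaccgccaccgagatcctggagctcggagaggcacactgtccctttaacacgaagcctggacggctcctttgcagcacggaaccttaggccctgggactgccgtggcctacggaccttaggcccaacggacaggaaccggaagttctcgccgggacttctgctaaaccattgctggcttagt
Pomp (GRCm38.p6, chr5:147860378-147860677, strand +): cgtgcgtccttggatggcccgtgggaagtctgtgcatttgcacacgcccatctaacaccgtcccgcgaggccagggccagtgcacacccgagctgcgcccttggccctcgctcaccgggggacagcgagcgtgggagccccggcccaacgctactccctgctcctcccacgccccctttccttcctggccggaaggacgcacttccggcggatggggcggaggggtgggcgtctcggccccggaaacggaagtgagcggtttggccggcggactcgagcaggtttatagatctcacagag
Psmb5 (GRCm38.p6, chr14:54617946-54618245, strand -): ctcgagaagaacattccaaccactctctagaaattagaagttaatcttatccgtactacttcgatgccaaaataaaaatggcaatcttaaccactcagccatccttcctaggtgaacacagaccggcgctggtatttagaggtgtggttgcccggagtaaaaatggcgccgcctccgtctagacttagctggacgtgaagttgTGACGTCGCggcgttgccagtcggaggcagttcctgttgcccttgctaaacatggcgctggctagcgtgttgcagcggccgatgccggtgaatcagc

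In the windows shown, Psma7 and Psmb5 hold a match to the response element core, Psma7 and Psmc1 hold a CCAAT box, and Pomp and Psmg3 hold neither. Windows were found for 37 of the 45 genes. A response element core was present in 16 of these 37 genes, or 43.2%, against 30.8% of all genes with a window. Counted by window, it was present in 17 of their 40, or 42.5%, against 27.8% of all 32851 windows of the same length. The core was present in 2 of the 6 genes with a window that rose, in none of the 2 that fell and in 14 of the 29 that did not pass the test described next. The GC box (GGGCGG, either strand) was in 60.0% of the windows of the set and 35.7% of all windows. The CCAAT box was in 12 of the 40 windows of the set and in 37.4% of all windows. Each motif was counted on its own whether or not its letters overlapped another's, and a match describes letters only.

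Values are the deposited log2 expression levels of probe sets, and differences are DNTLX3+ minus RAG-/- in log2 units throughout. A gene was said to rise or fall at a limma adjusted p (Benjamini-Hochberg over 28187 probe sets) under 0.05, and a second, stricter rule also asked for an absolute difference of at least 1. The arrays differed in ways that touch every member. The interquartile range of probe set values was 2.47 to 2.85 on DNTLX3+ arrays and 3.09 to 3.18 on RAG-/- arrays. The median difference of all genes was 0.11, and that of the 10754 genes above the median level of probe sets (6.26) was -0.14. Tlx3 stood at 7.09, 6.52 and 6.45 on DNTLX3+ arrays and at 5.40, 5.42 and 5.52 on RAG-/- arrays (limma adjusted p = 0.00102). Rag2 differed by -0.30 (limma adjusted p = 0.124), and its probes have no position relative to the deletion here, so the gene does not check the label. Among all genes 19.4% fell and 23% rose, and among genes above the median level 30.6% fell and 15% rose. Of 15 T lineage markers 9 fell and 2, Gata3 and Cd5, rose, with a median of -0.50. Their summed linear signal was 23100 to 28800 on DNTLX3+ arrays and 34800 to 36300 on RAG-/- arrays. Cd3e, a defining chain of the T-cell receptor complex, averaged 10.85 in DNTLX3+ and 11.35 in RAG-/- cells. Cd4 averaged 5.67 in DNTLX3+ and 6.01 in RAG-/- cells, and Cd8a 6.38 in DNTLX3+ and 6.25 in RAG-/- cells, so both lay under or near the median level.

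Within each group the proteasome genes moved together from array to array. DNTLX3+ replicate 2 was the highest of its group for 40 of 45 genes and replicate 1 the lowest for 33. RAG-/- replicate 2 was the highest of its group for 30 genes and replicate 3 the lowest for 37. The median deviation from the group mean was -0.14, 0.19 and -0.01 on DNTLX3+ replicates 1, 2 and 3, against 0.03, 0.09 and -0.10 on RAG-/- replicates 1, 2 and 3. For the genes above the median level the same deviations were -0.11, 0.08 and 0.04 on the DNTLX3+ arrays and 0.03, 0.01 and -0.04 on the RAG-/- arrays. The members are therefore not independent of each other on these arrays. The median SD of a member was 0.17 in DNTLX3+ and 0.12 in RAG-/- cells, against 0.20 and 0.10 over all genes.

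**Figure D1:**
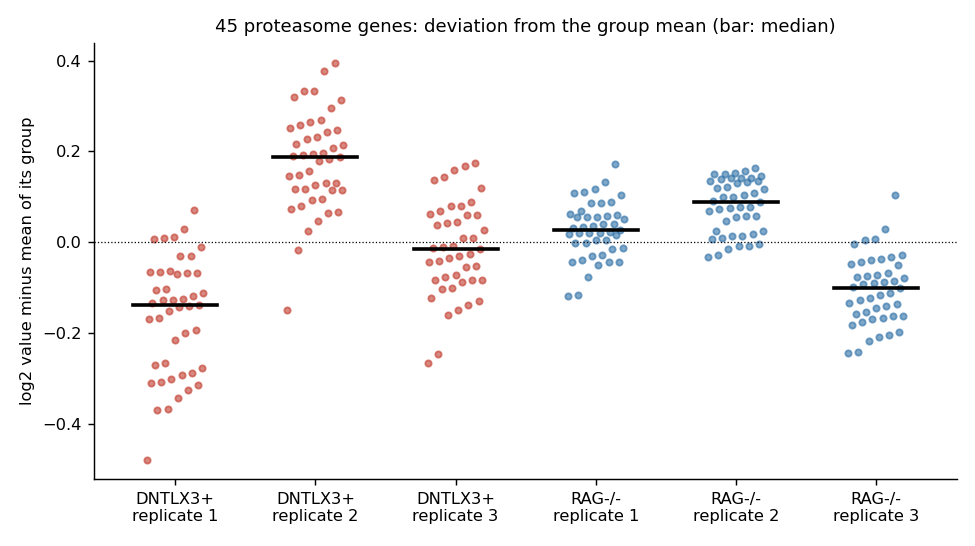
Deviation of the log2 value of each of 45 proteasome genes (points) from the mean of its own group, by array, with the median as a bar; DNTLX3+ arrays are red and RAG-/- arrays blue. DNTLX3+ replicate 2 lies highest, with a median of 0.19, and DNTLX3+ replicate 1 lowest, with -0.14.

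In the deposited values most proteasome genes did not pass the test between DNTLX3+ and RAG-/- cells. Of 45 genes, 9 rose, 4 fell and 32 did not pass. The absolute difference was under 0.3 for 27, and the share of all genes under 0.3 was not taken. The 13 genes past the test compare with 42.4% of all genes and 45.7% of genes above the median level. The shares of 20% higher and 8.89% lower stand beside 23% higher and 19.4% lower among all genes, and beside 15% higher and 30.6% lower among genes above the median level. Under the stricter rule 1 gene, Psmc1, was higher and none was lower, where 1.44% of all genes were higher and 5.07% lower. The median difference of the set was 0.07, against 0.11 over all genes and -0.14 over genes above the median level, to which 44 of the 45 belong. The groups did not overlap for 22 of the 45, a share of 48.9% against 58.3% of all genes and 63.4% of genes above the median level. In total RNA of mixed cells, fewer cells of a type and less RNA per cell cannot be told apart. The split of 9 higher and 4 lower depended on scaling: it became 18 and 2 after a further quantile step on the deposited values and 16 and 4 after cyclic loess. How the set compared with all genes turned with it. The share past the test was 28.9% of the set against 42.4% of all genes in the deposited values, 44.4% against 35.4% after the further quantile step and 44.4% against 36.2% after cyclic loess. After these rescalings 40% and 35.6% of the set were higher, against 18.4% and 16.8% of all genes. With equal array medians the share past was 24.4% of the set against 39.2% of all genes. Against genes above the median level the set median was the higher under each scaling. It was 0.07 against -0.14 in the deposited values and 0.01 against -0.20 with equal array medians. After the further quantile step it was 0.26 against 0.00, and after cyclic loess 0.23 against -0.03. Without RAG-/- replicate 3 the counts were 5 and 3, and they were 7 and 1 both without RAG-/- replicate 1 and without RAG-/- replicate 2. In each of these 3 cases 17.8% of the set passed, against 26% to 28.6% of all genes.

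**Figure D2:**
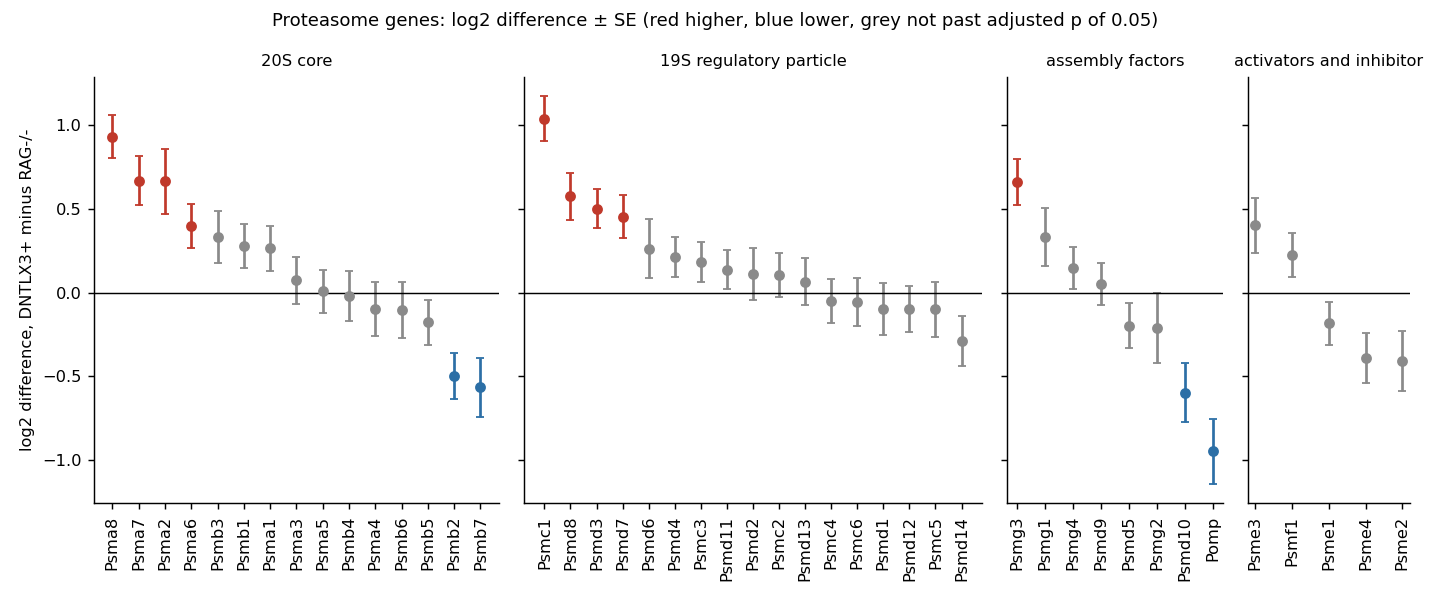
Log2 difference (DNTLX3+ minus RAG-/-, vertical axis) of each of 45 proteasome genes with its standard error, in panels by role and ordered by size. Red points rose, blue points fell at an adjusted p under 0.05, and grey points did not pass; Psmc1 is highest at 1.04 and Pomp lowest at -0.95.

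In the 20S core, 4 of 15 genes rose, 2 fell and 9 did not pass. So 40% passed, near the 42.4% of all genes and 45.7% of genes above the median level. By direction, 26.7% were higher and 13.3% lower, against 23% and 19.4% of all genes. Of genes above the median level 15% were higher and 30.6% lower. The rises were in alpha subunits, which build the outer rings, and the falls in beta subunits, which build the inner ones. Without Psma8, which lay under the median level, 3 of 7 alpha genes rose, or 42.9%. The difference between these kinds of subunit was not tested. Psma7 stood at 9.36, 9.70 and 9.45 on DNTLX3+ arrays, against 8.89, 8.98 and 8.64 on RAG-/- arrays. All DNTLX3+ values lay above all RAG-/- values, with a difference of 0.67 ± 0.15 (SE, n = 3 in each group) and a limma adjusted p of 0.0072. Psma2 stood at 9.46, 10.15 and 9.65 in DNTLX3+ and at 9.22, 9.20 and 8.84 in RAG-/- cells, a difference of 0.66 ± 0.19 (limma adjusted p = 0.0225). DNTLX3+ replicate 2 lay apart above the other values of that gene, the groups did not overlap, and without RAG-/- replicate 3 the adjusted p was 0.091. Psma6 averaged 10.16 ± 0.12 in DNTLX3+ and 9.76 ± 0.14 in RAG-/- cells (SD, n = 3 each), 1.32-fold higher (limma adjusted p = 0.0385). That call was lost in 8 of 16 alternatives, with an adjusted p of up to 0.147 without RAG-/- replicate 3.

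The fourth rise was Psma8, an alpha subunit known from the testis that takes the place of Psma7 in germ cells. Its values were 5.62, 5.40 and 5.63 on DNTLX3+ arrays and 4.51, 4.64 and 4.73 on RAG-/- arrays. These do not overlap, but all lie under the median level of 6.26, where a value may be background, so the difference of 0.93 is one of deposited values (limma adjusted p = 0.000965). It was the only member under that level. The remaining alpha genes did not pass: Psma1 differed by 0.26, Psma3 by 0.07 and Psma4 by -0.10. Psma5 had the smallest difference of the core, 0.01, with 8.86, 9.12 and 8.94 in DNTLX3+ and 9.02, 8.95 and 8.91 in RAG-/- cells. Of the 7 alpha genes without Psma8, 6 were above 0, or 7 after a further quantile step and after cyclic loess and 5 with equal array medians. Among the 10754 genes above the median level, 4204 were above 0 in the deposited values.

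Among the 7 beta genes, 2 fell, or 28.6%, against 19.4% of all genes and 30.6% of genes above the median level. None rose and 5 were below 0, as were 6550 of the 10754 genes above the median level. After a further quantile step 2 beta genes were below 0 and after cyclic loess 3. Psmb7, which carries the trypsin-like site, stood at 9.16, 9.83 and 9.51 in DNTLX3+ and at 10.03, 10.18 and 9.97 in RAG-/- cells. The DNTLX3+ values were spread more widely and all lay below the RAG-/- values, with a difference of -0.56 ± 0.18 (SE; limma adjusted p = 0.0294). The adjusted p was 0.0775, 0.101 and 0.0637 without RAG-/- replicates 1, 2 and 3, and 0.0568 without DNTLX3+ replicate 3. Psmb2, a structural beta subunit, stood at 8.62, 8.94 and 8.71 in DNTLX3+ and at 9.24, 9.39 and 9.13 in RAG-/- cells. Its groups did not overlap, and the difference was -0.50 ± 0.14 (limma adjusted p = 0.0186), or -0.32 after a further quantile step, where it missed the threshold (0.0512). It also missed it without RAG-/- replicate 1 (0.0638) or 2 (0.0837).

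The other catalytic subunits did not pass. Psmb5, with the chymotrypsin-like site, stood at 8.84, 8.95 and 8.65 in DNTLX3+ and at 9.01, 9.11 and 8.86 in RAG-/- cells. Psmb6, with the caspase-like site, stood at 9.16, 9.75 and 9.39 in DNTLX3+ and at 9.65, 9.56 and 9.40 in RAG-/- cells. Both genes had overlapping groups, with differences of -0.18 and -0.11 (limma adjusted p = 0.306 and 0.622). Psmb4 differed by -0.02, Psmb1 by 0.28 and Psmb3 by 0.33 (limma adjusted p = 0.919, 0.112 and 0.115). Psmb1 and Psmb3 passed as higher after a further quantile step and after cyclic loess, and Psmb3 also with array weights, with the mean of its probe sets and without DNTLX3+ replicate 1.

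**Figure D3:**
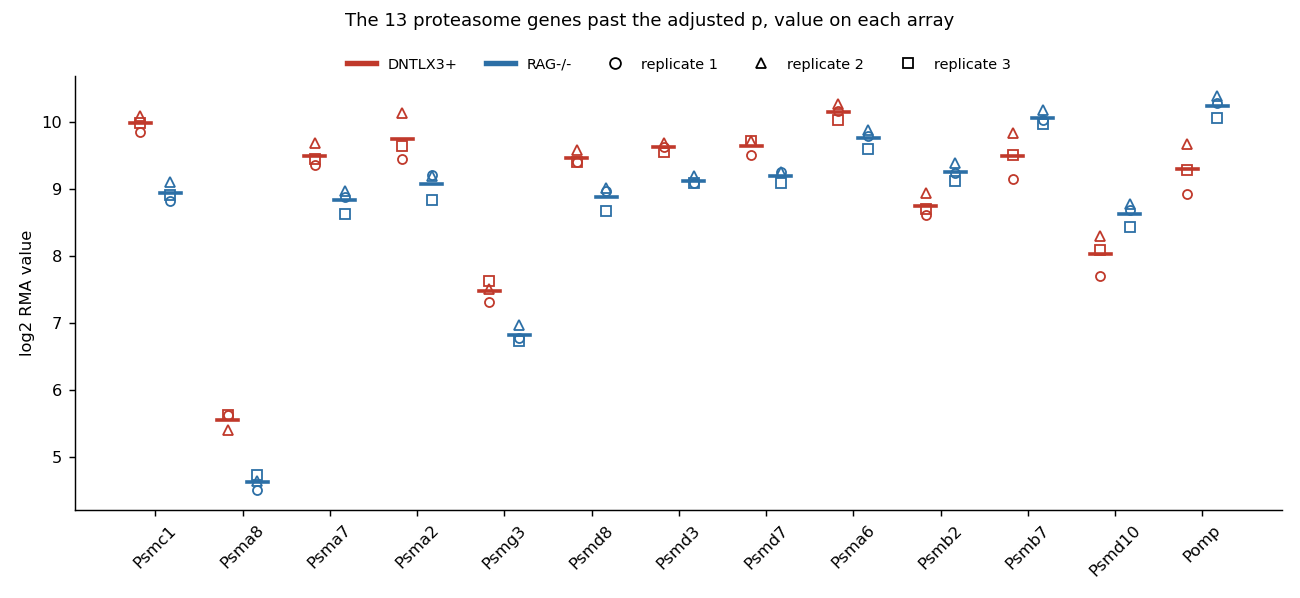
Log2 value on each of 6 arrays (vertical axis) for the 13 proteasome genes past the adjusted p, ordered by difference, with group means as bars; DNTLX3+ is left in red and RAG-/- right in blue. For each of the 13 the groups do not overlap, which choosing genes by adjusted p favours. The groups also do not overlap for 58.3% of all genes.

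In the 19S particle, 4 of 17 genes rose, none fell and 13 did not pass. So 23.5% passed, against 42.4% of all genes and 45.7% of genes above the median level. The median difference of the 17 genes was 0.11. Psmc1, an ATPase of the ring that unfolds substrates, had the largest difference of the set. It stood at 9.85, 10.10 and 9.99 on DNTLX3+ arrays and at 8.83, 9.10 and 8.91 on RAG-/- arrays. The lowest DNTLX3+ value lay well above the highest RAG-/- value, and the gene was 2.05-fold higher (difference 1.04 ± 0.13 SE, limma adjusted p = 0.000679). It kept the adjusted p in all 16 alternatives, with differences of 0.87 to 1.18. It fell under the minimum difference of 1 with equal array medians (0.97), with the mean of its probe sets (0.87), and without RAG-/- replicate 1 (0.98) or DNTLX3+ replicate 2 (0.98). The other 5 ATPase genes, Psmc2 to Psmc6, lay between -0.10 and 0.18 and did not pass.

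The other 3 rises were non-ATPase subunits of the lid, the part of the cap in which ubiquitin chains are cut off. Psmd3 stood at 9.64, 9.70 and 9.56 in DNTLX3+ and at 9.10, 9.20 and 9.09 in RAG-/- cells, with a difference of 0.50 ± 0.12 (SE; limma adjusted p = 0.00936). Psmd8 stood at 9.40, 9.58 and 9.41 in DNTLX3+ and at 8.98, 9.02 and 8.67 in RAG-/- cells, 1.49-fold higher (limma adjusted p = 0.0108). Psmd7, the partner of the deubiquitinase subunit Psmd14, stood at 9.51, 9.73 and 9.72 in DNTLX3+ and at 9.26, 9.26 and 9.09 in RAG-/- cells. In these 3 genes every DNTLX3+ value lay above every RAG-/- value, and Psmd7 was 1.37-fold higher (limma adjusted p = 0.0198). Psmd8 lost its call without RAG-/- replicate 3 (0.0505), and Psmd7 without RAG-/- replicate 1, 2 or 3 (0.0597, 0.0547 and 0.0842) and with equal array medians (0.0536).

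Psmd14 itself, the enzyme that removes ubiquitin chains, had the lowest difference of the 19S genes at -0.29 and did not pass (limma adjusted p = 0.144). Psmd4, a ubiquitin receptor of the cap, differed by 0.21, and its groups did not overlap (limma adjusted p = 0.17). Psmd1 and Psmd2, the large scaffold subunits, differed by -0.10 and 0.11. Psmc4 had the smallest absolute difference of the class at -0.05, with 9.24, 9.53 and 9.26 in DNTLX3+ and 9.43, 9.45 and 9.30 in RAG-/- cells. The remaining members Psmd6, Psmd11, Psmd12 and Psmd13 differed by 0.26, 0.14, -0.10 and 0.07. After a further quantile step and after cyclic loess 16 of the 17 genes were above 0, against 11 in the deposited values, and 6 and 5 of them passed as higher. Of all genes 18.4% and 16.8% passed as higher after these rescalings. Among the 10754 genes above the median level, 4204 were above 0 in the deposited values, a count not taken after rescaling.

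Assembly factors held the deepest fall and split in direction, with 1 of 8 higher, 2 lower and 5 not passing. The share past was 37.5%, against 42.4% of all genes and 45.7% of genes above the median level. By direction, 12.5% were higher and 25% lower, against 23% and 19.4% of all genes. Of genes above the median level, to which all 8 belong, 15% were higher and 30.6% lower. Pomp, the chaperone that guides the joining of the core's beta rings and is then degraded as its first substrate, stood at 8.93, 9.68 and 9.29 in DNTLX3+ and at 10.28, 10.40 and 10.07 in RAG-/- cells. All DNTLX3+ values lay below all RAG-/- values, and the gene was 1.93-fold lower (difference -0.95 ± 0.19 SE, limma adjusted p = 0.00498). It passed in all 16 alternatives, with differences of -1.13 to -0.76. Psmd10, a chaperone of the ATPase ring known as gankyrin, stood at 7.71, 8.30 and 8.10 in DNTLX3+ and at 8.70, 8.78 and 8.43 in RAG-/- cells. Its groups did not overlap and the difference was -0.60 ± 0.17 (limma adjusted p = 0.0231), but the adjusted p was 0.0583 after a further quantile step and 0.08 and 0.0878 without RAG-/- replicates 1 and 2. Psmg3, a chaperone of the alpha ring that acts with Psmg4, rose: it stood at 7.32, 7.51 and 7.63 in DNTLX3+ and at 6.78, 6.97 and 6.74 in RAG-/- cells, 1.58-fold higher with no overlap (limma adjusted p = 0.0053, at most 0.0295 over 16 alternatives).

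Its partner Psmg4 differed by 0.15 and the other chaperone pair, Psmg1 and Psmg2, by 0.33 and -0.21, none of which passed (limma adjusted p = 0.352, 0.144 and 0.423). Psmd5, a chaperone of the ATPase ring, differed by -0.20. Psmd9, which acts at the same step, had the smallest absolute difference of the class, 0.05, with 8.19, 8.41 and 8.17 in DNTLX3+ and 8.23, 8.26 and 8.12 in RAG-/- cells. For the assembly factors the split of 1 higher and 2 lower became 3 and 1 after a further quantile step and 2 and 2 after cyclic loess.

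None of the 5 activators and inhibitors passed, against 42.4% of all genes. The groups nevertheless did not overlap for 4 of them, all but Psme1. This share of 80% compares with 58.3% of all genes and 63.4% of genes above the median level. Psme1 and Psme2, which form an interferon-inducible cap of the core, differed by -0.18 and -0.41 (limma adjusted p = 0.266 and 0.09). Psme2 stood at 8.91, 9.51 and 9.41 in DNTLX3+ and at 9.71, 9.84 and 9.52 in RAG-/- cells, and Psme1 at 10.17, 10.34 and 10.38 in DNTLX3+ and at 10.50, 10.58 and 10.36 in RAG-/- cells. The groups of Psme2 were just apart and those of Psme1 overlapped. Psme3, the nuclear activator, stood at 9.85, 10.40 and 10.22 in DNTLX3+ and at 9.84, 9.83 and 9.59 in RAG-/- cells, a difference of 0.40 that passed after a further quantile step and after cyclic loess, with array weights and without DNTLX3+ replicate 1, but not in the deposited values (limma adjusted p = 0.0766). Psme4, an activator linked to histone turnover, differed by -0.39 (limma adjusted p = 0.0578) and passed as lower in 4 alternatives. Psmf1, an inhibitor of the core in vitro, differed by 0.22 (limma adjusted p = 0.197).

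Several members have more than 1 probe set with that symbol alone. Both probe sets of Psmc1 passed as higher, with 1.04 for the brighter, numbered among genes of its own chromosome 12, and 0.71 for the dimmer, numbered among genes of chromosome 16. For Psmb3 the brighter probe set, among genes of its own chromosome 11, gave 0.33, and the dimmer, among genes of chromosome 16, gave 0.83 and passed (limma adjusted p = 0.00208). The brighter probe set of Psmd2 stood at 10.10, 10.64 and 10.42 in DNTLX3+ and at 10.32, 10.28 and 10.23 in RAG-/- cells. Its probe sets differed by 0.11 and -0.12, opposite in sign, and neither passed. The probe sets that represent Psma3 and Psma5 are numbered among genes of chromosomes 6 and 10, while the genes lie on chromosomes 12 and 3. The probe sets among genes of their own chromosomes gave 0.04 for both, beside 0.07 for Psma3 and 0.01 for Psma5 as represented. The remaining probe set of Psma3, among genes of chromosome 14, gave 0.39 and did not pass (limma adjusted p = 0.103). Signal from gene copies elsewhere in the genome was not tested.

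The inducible and thymic catalytic subunits, which the set leaves out, were set beside the constitutive subunits they replace. Psmb9, which replaces Psmb6, stood at 8.99, 9.19 and 9.06 in DNTLX3+ and at 10.01, 10.09 and 9.96 in RAG-/- cells and fell by 0.94 on the log2 scale (limma adjusted p = 0.000706). Psmb8, which replaces Psmb5, stood at 9.77, 10.26 and 9.86 in DNTLX3+ and at 10.66, 10.71 and 10.52 in RAG-/- cells and fell by 0.66 (limma adjusted p = 0.00893). Psmb10, which replaces Psmb7, differed by -0.12 and did not pass (limma adjusted p = 0.429), and it differed by 0.02 and 0.03 after a further quantile step and after cyclic loess. Psmb11, which replaces Psmb5 in cortical thymic epithelium, stood at 5.95, 5.45 and 5.77 in DNTLX3+ cells, under the median level, and at 8.13, 8.22 and 8.83 in RAG-/- cells. Its difference of deposited values was -2.67 ± 0.21 (SE; limma adjusted p = 7.6e-05), and its size is uncertain because the DNTLX3+ values may be background. All 4 genes had groups that did not overlap, as did 58.3% of all genes and 63.4% of genes above the median level.

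The change of each subunit relative to its constitutive counterpart was taken as the difference of their log2 values on each array. Psmb9 minus Psmb6 changed by -0.83, Psmb8 minus Psmb5 by -0.49 and Psmb11 minus Psmb5 by -2.49 in DNTLX3+ relative to RAG-/- arrays, whereas Psmb10 minus Psmb7 changed by 0.44. The size for Psmb11 carries the same uncertainty. In each of these 4 comparisons the groups did not overlap, and the exact two-sided permutation p was 0.1, also after Benjamini-Hochberg adjustment over the 4, the smallest that 3 against 3 arrays allow. This permutation test cannot go under 0.05 with these arrays. Of 9 genes of inducible subunits and peptide loading, 7 fell and none rose, with a median of -0.78. Lower were 19.4% of all genes and 30.6% of genes above the median level, to which all 9 belong. The 7 falls included the peptide transporter genes Tap1 (-1.28) and Tap2 (-0.99), which lie beside Psmb9 and Psmb8 on chromosome 17. There Psmb9 ends at 34187330 and Tap1 starts at 34187556 (GRCm38.p6). The fall of Tapbp missed the threshold without RAG-/- replicate 1, 2 or 3 (limma adjusted p = 0.0701, 0.0597 and 0.0642).

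Markers of other cell types and interferon-induced genes were also compared between the groups. Beside their counts stand 19.4% of all genes that fell and 23% that rose. Of genes above the median level 30.6% fell and 15% rose. Of 22 myeloid and dendritic markers 20 fell, and their summed linear signal was 1210 to 1270 on DNTLX3+ arrays and 9890 to 11500 on RAG-/- arrays. Of 14 thymic epithelial markers, Psmb11 among them, 11 fell, with sums of 1410 to 1670 on DNTLX3+ and 7350 to 13500 on RAG-/- arrays. Of 12 NK and cytotoxic markers 8 fell and Gzma rose, with sums of 1520 to 2020 on DNTLX3+ and 3150 to 3750 on RAG-/- arrays. Group means of 18 myeloid, 8 epithelial and 8 NK markers lay under the median level in DNTLX3+ cells, against 2, 1 and 0 in RAG-/- cells. Of 9 measured interferon-induced genes 8 fell, with a median of -1.11 and sums of 1620 to 1870 on DNTLX3+ and 2610 to 3430 on RAG-/- arrays. Of 6 B-lineage, 8 stromal and 2 erythroid markers, 2, 1 and 1 fell and 2, 0 and 0 rose. The part of these cells and of interferon in the values of Psmb8, Psmb9, Psmb11, Psme1 and Psme2, or of any other proteasome gene, was not tested.

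**Figure D4:**
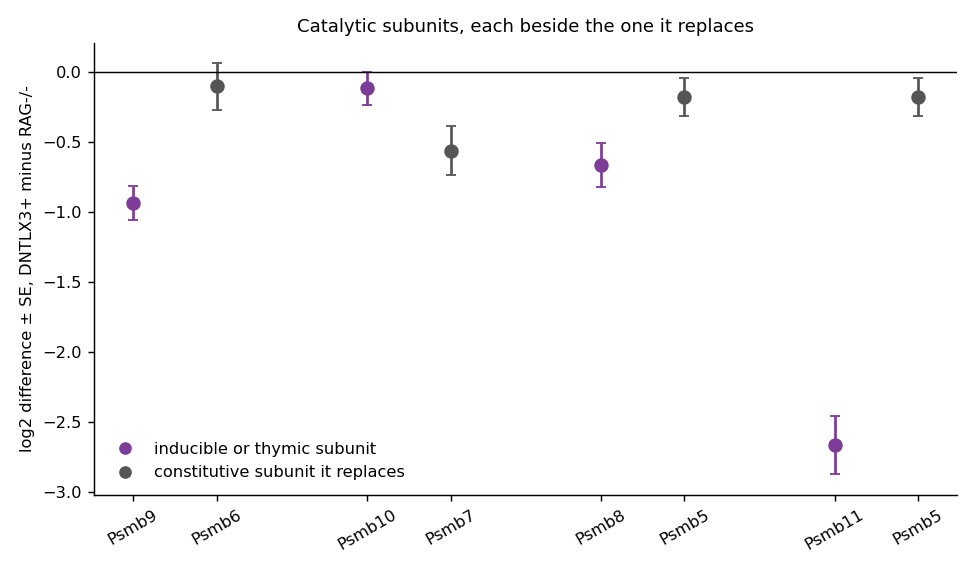
Log2 difference with its standard error (DNTLX3+ minus RAG-/-, vertical axis) of the inducible or thymic catalytic subunits (purple), each left of the constitutive subunit it replaces (grey). Psmb9, Psmb8 and Psmb11 lie lower than their counterparts, at -0.94, -0.66 and -2.67, and Psmb10 lies higher than Psmb7.

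Proteasome cofactors and regulators outside the set passed the test about as often as all genes. Of 33 listed genes 22 were measured, of which 4 rose, 5 fell and 13 did not pass, with a median of -0.07. The share past was 40.9%, against 42.4% of all genes, with 18.2% higher and 22.7% lower against 23% and 19.4%. Of genes above the median level, to which all 22 belong, 45.7% passed, with 15% higher and 30.6% lower. Ubiquilins, shuttle proteins that carry ubiquitinated clients to the proteasome, were among the rises: Ubqln2 (0.89), Ubqln4 (0.63) and Ubqln1 (0.49), with limma adjusted p of 0.00113, 0.0103 and 0.0239. The fourth was Rad23b, another shuttle factor (0.33). The falls included Nfe2l1, the activator of subunit genes named above, which stood at 7.93, 8.58 and 8.31 in DNTLX3+ and at 8.89, 8.76 and 9.02 in RAG-/- cells (difference -0.62 ± 0.17 SE, limma adjusted p = 0.0197). Ecpas, which holds core and cap together, fell by 0.57, Zfand5, an activator of the proteasome, by 0.60, Ufd1, a cofactor of the unfoldase Vcp, by 0.60, and Sem1, the smallest lid subunit, by 0.50. Rad23b, Ufd1 and Sem1 were chosen for naming after their values were seen. After a further quantile step the split was 6 higher and 3 lower, and after cyclic loess 6 and 5, and with equal array medians 2 and 5. Leaving out 1 array gave 3 and 2 without RAG-/- replicate 1, 2 and 2 without RAG-/- replicate 2 or 3, 6 and 5 without DNTLX3+ replicate 1, 2 and 6 without DNTLX3+ replicate 2, and 2 and 3 without DNTLX3+ replicate 3.

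The proteasome genes shifted upward, relative to all genes, under 2 of 3 rescalings, and so did genes above the median level. The median of all genes was 0.11 in the deposited values, 0.04 with equal array medians, 0.04 after a further quantile step and 0.00 after cyclic loess, a shift of -0.10 in the last case. The median of the 45 proteasome genes was 0.07, 0.01, 0.26 and 0.23 in the same order, and that of genes above the median level was -0.14, -0.20, 0.00 and -0.03. Relative to the median of all genes, 21, 21, 31 and 34 of the 45 proteasome genes lay above it. Under all 4 scalings Psma2, Psma7, Psma8, Psmc1, Psmd3, Psmd8 and Psmg3 passed as higher and Psmb7 and Pomp as lower.

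**Figure D5:**
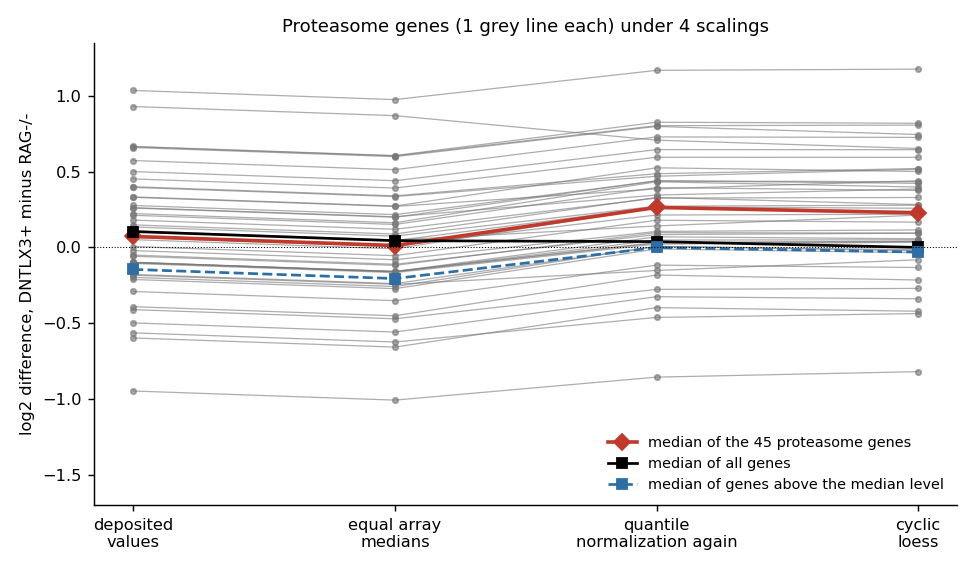
Log2 difference of each of 45 proteasome genes (grey lines, DNTLX3+ minus RAG-/-, vertical axis) in the deposited values and after 3 rescalings, with the medians of the set (red), of all genes (black) and of genes above the median level (blue dashes). The median of the set is 0.07 and 0.01 at left and 0.26 and 0.23 at right.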

How the data were processed

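Total RNA was labelled with biotin and hybridised to 6 Affymetrix arrays of 1 colour. The authors deposited log2 values for each probe set. RMA, affy and R 2.9.0 are named in the submitters' processing notes. RMA corrects background, applies quantile normalization and summarises probes. The interquartile range of the deposited values still differed between arrays, from 2.47 to 3.18, so the arrays do not share 1 distribution. Whether the 6 arrays were normalized together was not tested. The authors' genome build is not stated in the labels. Of 34760 probe sets, 6573 numbered before the first annotated one were left out and 28187 tested. Genes were named from the platform annotation, by single symbols only. Differences were fitted with limma 3.58.1 under R 4.3.3, by lmFit and then eBayes with two-sided tests, with no covariates or further scaling. The fit was tested on simulated data. Chromosomes and promoter windows came from RefSeq (GRCm38.p6). Plots were drawn with matplotlib 3.10.9. All members are accounted for. Values per array were given by rule for members past the minimum difference, the 3 largest differences past the test and the smallest in each class, the 3 catalytic subunits, Pomp, Psme1, Psme2, dim members and members with probe sets of opposite sign. Up to 3 genes per list and direction were named by adjusted p. Per-array values of Psmb2, Psmd7 and Psme3 were added after they were seen. Members, lists and motifs were chosen with earlier results of these data known. Alternatives were 3 rescalings, 2 filters, array weights, a trended robust fit, the replicate block, other probe set choices and leaving out each array. The number of arrays limits the precision.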

Additional observations from a re-analysis of the deposited data

How the results depend on the processing

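Each count and median was recomputed under 16 alternatives, of which the choice of the probe set at the gene's own chromosome was made after seeing the data. Of 208 such values 173 lay within 1.5 times the count, or for the median within the spread between arrays (0.2263), of the deposited-value result. These 173 include counts of 0 that stayed 0. They also include the set medians of 0.26 after a further quantile step and 0.23 after cyclic loess, so they do not measure stability under rescaling. A further quantile step gave 18 members higher and 2 lower, 7 and 1 in the 20S core, 3 and 1 among assembly factors, and 2 activators higher. Cyclic loess gave 16 members higher, with 7 of the 20S core, 2 activators and 2 assembly factors. Equal array medians left 0 members higher and 1, Pomp, lower under the minimum difference, and averaging probe sets left 0 higher. Among activators, 1 was lower with dim probe sets left out, with the intensity trend and with probe sets averaged, and 1 was higher with array weights. Leaving out 1 array gave 5 to 12 members higher and 1 to 4 lower, and 0 to 1 in either direction under the minimum difference. By class it gave 2 to 5 higher and 0 to 2 lower in the 20S core, 2 to 4 higher in the 19S particle, 0 to 1 activators in either direction, and 1 to 2 assembly factors in either direction. The 20S falls were 0 without RAG-/- replicate 1 or 2 and 1 without RAG-/- replicate 3 or DNTLX3+ replicate 3. The median of the set ranged from -0.03 to 0.14 over these. The cause of these changes was not tested. No member that passed in the deposited values turned direction. The replicate number as a block gave 8 higher and 4 lower. Deviations of same-numbered arrays correlated at -0.11, 0.06 and -0.00 for numbers 1, 2 and 3, so the numbers were not taken as pairs, and the block ended the call of Psma6 only.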

Other observations

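Across the 45 genes, Spearman's rho of the log2 difference (DNTLX3+ minus RAG-/-) was -0.11 with gene length and -0.00 with mean level. These are descriptions across genes, which share arrays and are not independent replicates. The median gene length was 12595 bases for the proteasome genes and 17738 for all genes.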
